A study of Mus musculus with 15 samples.

Results

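The transcripts described here belong to the sodium-retaining machinery of the distal nephron. They are Slc12a3, Scnn1a, Scnn1b, Scnn1g, Nr3c2, Hsd11b2, Nedd4l, Wnk1 and Atp1b1, measured in kidneys of male C57BL/6 mice given free or limited water after weaning. All probes whose current or earlier gene symbol in the array's annotation is one of these names were taken, 20 probes for 9 genes out of 19057 genes with a named probe on the mouse array. The kidney RNA of 15 mice was hybridised to an Illumina whole-genome bead array, 1 mouse per array. The 4 CON 1W and 4 RES 1W mice had reached 4 weeks of age, whereas the 3 CON 4W and 4 RES 4W mice had reached 7 weeks. From weaning at the age of 3 weeks the RES mice could drink during 15 min of each day, over 1 week or 4 weeks. The CON mice drank freely, and all groups ate the AIN-93G diet. The paper reports that the restricted mice ate less at first, over a few days, and were killed a day after their last water. The part of either in the values below was not tested. RNA of whole kidney was used, so that a lower transcript level from fewer cells of a type and one from less RNA per cell cannot be told apart.

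In the distal convoluted tubule, sodium enters the cell with chloride through the thiazide-sensitive cotransporter NCC, the product of Slc12a3, which is switched on by kinases of the WNK family such as Wnk1. In the connecting tubule and collecting duct it enters through the epithelial sodium channel ENaC, whose alpha, beta and gamma subunits are made from Scnn1a, Scnn1b and Scnn1g. Aldosterone acts there through the mineralocorticoid receptor, Nr3c2, and Hsd11b2 keeps that receptor selective by converting corticosterone into an inactive steroid. Nedd4l encodes a ubiquitin ligase that takes ENaC off the cell surface, and Sgk1, a kinase induced by corticosteroids, restrains it. The sodium pump, of which Atp1b1 encodes the beta subunit, moves the sodium out on the blood side.

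Of the 20 probes, 15 probes of 8 genes passed the filter on dim probes, a detection p-value under 0.05 in at least 3 arrays, and each of these 15 was detected in all 15 arrays. The log2 levels below come from limma's neqc. Levels are compared between arrays for one probe and never between probes. Neither probe of Nr3c2 was well above background. One of them was detected in no array and the other in 2, at a log2 level of 4.80 in RES 1W replicate 3 and of 5.51 in RES 4W replicate 1. The other 2 probes of Nedd4l and 1 further probe of Wnk1 were also detected in no array. The receptor itself could therefore not be compared between the groups.

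Between 15295 and 17433 probes were detected per array. RES 4W replicate 1 stood apart from its group: its mean correlation with the other RES 4W arrays was 0.978, that with the CON 4W arrays was 0.988, and its nearest array was CON 4W replicate 3. Without it, the share of tested probes called between RES 4W and CON 4W rose from 6.49% to 24.1%, so for several genes the value at 7 weeks is also given without it. Markers of the kidney were present, with 6 of 6 proximal tubule markers passing the filter, whereas 6 of 7 markers of the adrenal cortex, which lies beside the kidney, did not. A probe is called at an adjusted p under 0.05, from limma with Benjamini-Hochberg adjustment over all 19027 tested probes.

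Under water restriction, 1 probe of the distal sodium genes was called, a dim probe of Slc12a3 in the older mice. That count is near the share called over all tested probes. Between RES 1W and CON 1W, 0 of the 15 member probes were called, where 2.81% of all tested probes were. Between RES 4W and CON 4W, 1 of 15 was called, where 6.49% were. In the age comparison of CON 4W with CON 1W, 0 of 15 were called, where 2.97% were. The median log2 fold change of the member probes was -0.04 in RES 1W, 0.08 in RES 4W and -0.14 with age, against -0.0019, 0.0045 and -0.0015 over all tested probes. With limma at an unadjusted p under 0.05, the members counted 3, 1 and 3 probes of 15, where 14.3%, 25.4% and 16.3% of all tested probes were counted. In RES 4W, 0 of 15 probes separated the kidneys of the 2 groups without overlap, where 14.7% of all tested probes did.

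**Figure D1:**
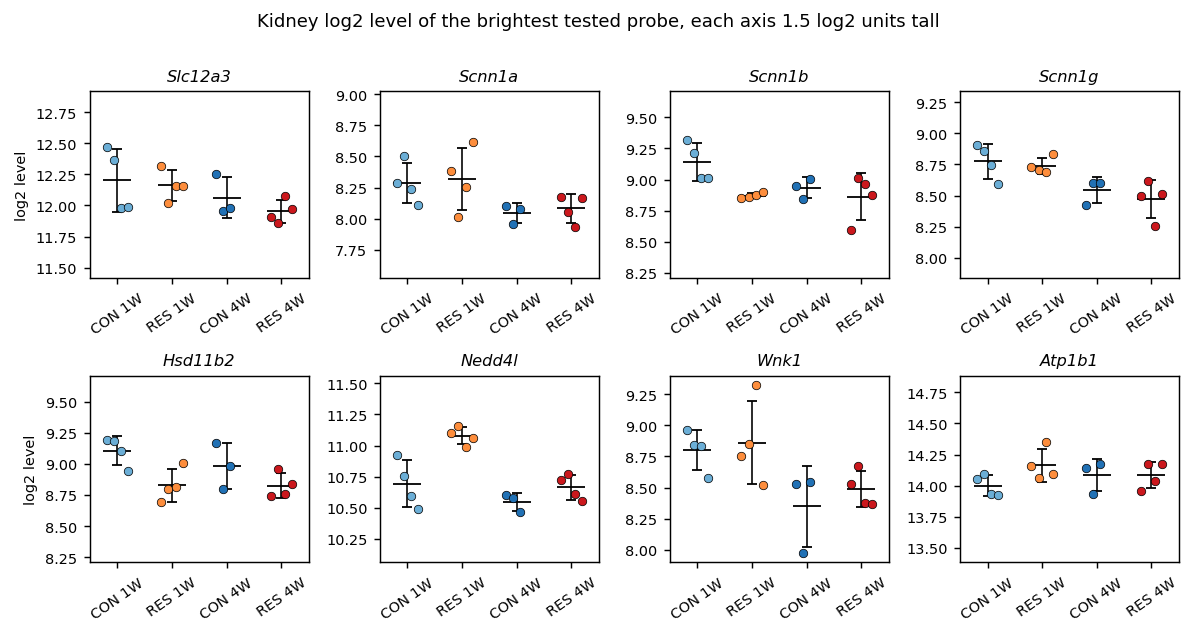
Log2 level (y axis) in each of the 15 kidneys (points) by group (x axis), for the probe with the highest mean level of each of the 8 measurable genes; horizontal bars are group means and error bars are SD. The RES 1W points of Nedd4l lie between 10.99 and 11.16, above all CON 1W points, and those of Scnn1b lie between 8.85 and 8.90, below all CON 1W points, whereas the other panels overlap between RES and CON at each age.

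Slc12a3, which encodes NCC, was read by 5 probes, and 4 of them were called in no comparison. The leading probe read 12.47, 12.36, 11.98 and 11.99 in CON 1W, 12.31, 12.02, 12.15 and 12.16 in RES 1W, 12.25, 11.96 and 11.98 in CON 4W, and 11.91, 11.86, 12.07 and 11.97 in RES 4W. All 4 groups overlapped. The log2 fold change of this probe was -0.04 (95% confidence interval -0.30 to 0.22, adjusted p = 0.94) in RES 1W and -0.11 (-0.39 to 0.17, adjusted p = 0.65) in RES 4W. A change of a size within these intervals is not excluded with these numbers of mice.

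The exception was a dim probe of Slc12a3, ILMN_1229114, which was called as higher in RES 4W. It read 5.96, 6.40 and 6.09 in CON 4W and 6.24, 7.14, 6.96 and 6.99 in RES 4W. Of the RES 4W kidneys, 3 lay above all CON 4W kidneys and replicate 1 lay among them. The log2 fold change was 0.68 (SE 0.19, 95% confidence interval 0.28 to 1.08), and the adjusted p was 0.043. The call held in 5 of 12 other processing alternatives, over which the adjusted p ran from 0.00065 to 0.32. The exact permutation test, two-sided over 35 regroupings, gave p = 0.086. In the younger mice the same probe read 6.08, 6.49, 6.24 and 6.24 in CON 1W and 6.13, 5.84, 6.31 and 5.95 in RES 1W, a log2 fold change of -0.20 (adjusted p = 0.70) with overlapping groups. The difference between the restriction effects at the 2 ages was 0.88 on the log2 scale (adjusted p = 0.098), and it was called for 0 of 15 member probes, where 0.583% of all tested probes were. At an unadjusted p under 0.05, limma counted 1 of them, this probe, where 18.7% of all tested probes were counted.

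Leaving out RES 4W replicate 1 gave this probe a log2 fold change of 0.88 (adjusted p = 0.00052) and a difference between the ages that was called (adjusted p = 0.0018). The shares of all tested probes called rose as well, in RES 4W as given above and for the difference as given below. The call in RES 4W also held when CON 1W replicate 2, RES 1W replicate 2 or RES 1W replicate 3 was left out. It was lost without any one of the other 11 arrays, with adjusted p from 0.051 to 0.14, the last without CON 4W replicate 1.

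The other 4 probes of Slc12a3 gave log2 fold changes from -0.11 to 0.29 in RES 4W, and none was called. Without RES 4W replicate 1 the values ran from -0.10 to 0.43, and none was called. Over the 15 arrays, deviations from the group means correlated between 0.70 and 0.86 among those 4 probes, and between -0.01 and 0.29 for each of them with ILMN_1229114. These correlations share the same arrays and are a description. The call for Slc12a3 thus rests on 1 of 5 probes.

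**Figure D2:**
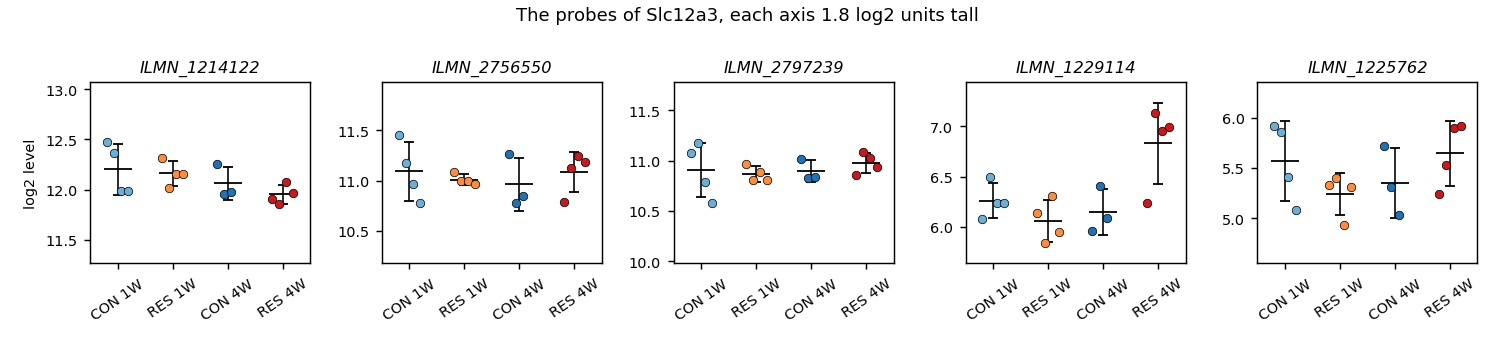
Log2 level (y axis) of each of the 5 probes of Slc12a3 in the 15 kidneys (points) by group (x axis); horizontal bars are means and error bars are SD. In the panel of ILMN_1229114, 3 RES 4W kidneys lie between 6.96 and 7.14 and replicate 1 lies at 6.24, whereas the RES 4W and CON 4W points of the other panels overlap.

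Of 4 tested markers of the distal convoluted tubule other than Slc12a3, 1 was called in RES 1W, where 3.4% of genes were, and 1 in RES 4W, where 5.83% were. Pvalb, a calcium-buffering protein of the early part of that segment, fell in RES 1W by 0.71 on the log2 scale (adjusted p = 0.011), from 11.11 to 11.42 in CON 1W to 10.16 to 10.82 in RES 1W. Trpm6, a magnesium channel, fell with age and rose in RES 4W, as given below. Sgms2 averaged 6.97 in CON 1W and 7.17 in RES 1W, and Emx1 averaged 6.14 and 6.21, with adjusted p of 0.66 and 0.90. The median log2 fold change of the 4 markers in RES 1W was -0.01. Calb1, the fifth marker listed, was detected in no array. Their summed log2 level spanned 11.31 to 11.58 among CON 1W kidneys and 10.51 to 11.05 among RES 1W kidneys. Among the older mice it spanned 11.06 to 11.44 for CON 4W and 11.11 to 11.32 for RES 4W. By its construction the sum mostly follows Pvalb, whose probe gave the highest values of the 4. Every Slc12a3 probe overlapped between RES 1W and CON 1W. The part of the marker change in any Slc12a3 value was not tested.

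The window around the transcription start of Slc12a3 is shown because the gene heads the pathway and because it can be set beside that of the corticosteroid-induced gene Sgk1 below. It runs from 250 bases before the start to 50 after it (RefSeq, GRCm38.p6, chr8:94328958-94329257, plus strand, 60.3% GC). Capitals mark TATAAA, held by 13.6% of 32851 such windows of mouse genes on either strand, and GGGCGG or its reverse complement, held by 35.7%.
Slc12a3: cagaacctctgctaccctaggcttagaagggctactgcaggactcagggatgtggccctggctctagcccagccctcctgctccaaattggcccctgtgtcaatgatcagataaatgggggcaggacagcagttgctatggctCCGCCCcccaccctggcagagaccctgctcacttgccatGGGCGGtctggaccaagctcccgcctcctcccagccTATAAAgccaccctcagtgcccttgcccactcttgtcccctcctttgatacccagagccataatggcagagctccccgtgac

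The 3 ENaC subunits were each read by 1 probe, and none was called in any comparison. Scnn1b, the beta subunit, read 9.32, 9.21, 9.01 and 9.02 in CON 1W and 8.85, 8.86, 8.87 and 8.90 in RES 1W. All restricted kidneys lay below all controls, and they were tightly grouped. The log2 fold change was -0.27 (SE 0.11, adjusted p = 0.24), and the exact permutation p was 0.029, the smallest that 4 arrays against 4 allow. Of the 15 member probes, 2 did not overlap between these groups, this one and that of Nedd4l, where 10.1% of all tested probes did not. At 7 weeks Scnn1b read 8.95, 8.84 and 9.01 in CON 4W and 8.60, 9.01, 8.97 and 8.88 in RES 4W, which overlapped.

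Scnn1a, the alpha subunit, averaged 8.29 ± 0.16 in CON 1W against 8.32 ± 0.25 in RES 1W (SD, n = 4 each). In the older mice the CON 4W kidneys averaged 8.04 ± 0.08 (SD, n = 3) and the RES 4W kidneys 8.08 ± 0.12 (SD, n = 4). Aldosterone is known to raise this subunit in the kidney. Its log2 fold change under restriction was 0.03 (95% confidence interval -0.23 to 0.29) at 4 weeks of age and 0.04 (-0.24 to 0.32) at 7 weeks.

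Scnn1g, the gamma subunit, averaged 8.78 ± 0.14 in CON 1W, 8.74 ± 0.06 in RES 1W, 8.54 ± 0.10 in CON 4W and 8.47 ± 0.15 in RES 4W (SD, n as above). Neither restriction comparison separated the groups. The age comparison gave log2 fold changes of -0.24, -0.20 and -0.23 for alpha, beta and gamma. None of these differences was called, with adjusted p of 0.39, 0.40 and 0.30. Scnn1a and Scnn1b did not overlap between the control groups and were lower in CON 4W, where 8.94% of all tested probes were. For Scnn1b the margin was narrow, with a highest CON 4W level of 9.0068 and a lowest CON 1W level of 9.0095. Scnn1g overlapped.

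The windows around the starts of the beta and gamma genes, which lie near each other on chromosome 7, are shown because the subunits assemble in one channel (RefSeq, GRCm38.p6, plus strand, chr7:121864788-121865087 with 61.7% GC for Scnn1b and chr7:121734229-121734528 with 64.7% GC for Scnn1g). Capitals mark GGGCGG or its reverse complement, found 1 time in Scnn1b and 2 times in Scnn1g, and neither window held TATAAA.
Scnn1b: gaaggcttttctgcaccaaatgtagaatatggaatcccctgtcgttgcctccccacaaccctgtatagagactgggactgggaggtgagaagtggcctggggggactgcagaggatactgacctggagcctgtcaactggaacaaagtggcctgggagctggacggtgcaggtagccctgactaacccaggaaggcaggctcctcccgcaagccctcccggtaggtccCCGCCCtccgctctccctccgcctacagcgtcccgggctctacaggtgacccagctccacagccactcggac
Scnn1g: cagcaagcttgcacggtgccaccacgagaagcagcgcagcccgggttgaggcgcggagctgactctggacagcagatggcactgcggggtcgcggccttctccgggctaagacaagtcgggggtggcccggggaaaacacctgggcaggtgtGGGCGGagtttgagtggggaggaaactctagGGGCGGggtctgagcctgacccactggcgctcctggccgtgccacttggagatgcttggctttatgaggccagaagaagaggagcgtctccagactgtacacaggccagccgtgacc

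Nedd4l, the ligase that removes ENaC, was the member nearest to a call in RES 1W. Its only measurable probe read 10.93, 10.75, 10.60 and 10.49 in CON 1W and 11.10, 11.16, 10.99 and 11.06 in RES 1W. All 4 restricted kidneys lay above all controls. The log2 fold change was 0.39 (SE 0.10, 95% confidence interval 0.17 to 0.60), 1.31-fold, with an adjusted p of 0.055 and an exact permutation p of 0.029. The difference did not pass the threshold as fitted. It passed without CON 1W replicate 1 (adjusted p = 0.021) or without RES 4W replicate 1 (adjusted p = 0.040), and in 8 of 12 other processing alternatives, over which the adjusted p ran from 0.013 to 0.16.

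At 7 weeks of age Nedd4l read 10.60, 10.58 and 10.47 in CON 4W and 10.73, 10.77, 10.61 and 10.56 in RES 4W. The groups overlapped, with a log2 fold change of 0.12 (95% confidence interval -0.12 to 0.35). The difference between the effects at the 2 ages was -0.27 (adjusted p = 0.35), so that a larger effect in the younger mice was not shown.

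Hsd11b2, which shields the mineralocorticoid receptor, was read by 2 probes that disagreed in sign in RES 4W. The leading probe averaged 9.11 ± 0.12 in CON 1W against 8.83 ± 0.13 in RES 1W (SD, n = 4 each). Its log2 fold change was -0.28 (SE 0.11), with an adjusted p of 0.21. The highest restricted kidney, at 9.01, lay above the lowest control, at 8.94. The other probe gave -0.14 (adjusted p = 0.73). In RES 4W the 2 probes gave -0.16 and 0.21, with adjusted p of 0.42 and 0.38. The second probe read 8.87, 8.83 and 8.84 in CON 4W and 8.70, 9.12, 9.16 and 9.25 in RES 4W, so that replicate 1 lay below the controls and the other RES 4W kidneys above them. Without that array it gave 0.33 (adjusted p = 0.075) and the leading probe -0.13. No direction for Hsd11b2 can be read from them.

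Of 7 markers of principal cells, in which Scnn1b, Hsd11b2 and Nedd4l are expressed, 2 were called in RES 1W and 1 in RES 4W, where 3.4% and 5.83% of genes were. The water channel gene Aqp2 rose at both ages, with log2 fold changes of 1.46 in RES 1W (adjusted p = 0.0020) and 2.11 in RES 4W (adjusted p = 0.00070). Aqp3, another water channel gene, had a log2 fold change of 0.50 in RES 1W (adjusted p = 0.0049). The other 5 were not called. Among them Fxyd4 spanned 10.43 to 10.63 for CON 1W and 10.07 to 10.26 for RES 1W, with all restricted kidneys below all controls (log2 fold change -0.34, adjusted p = 0.14). Aqp4 gave 0.48 (adjusted p = 0.056), Elf5 0.28, Avpr2 0.03 and Tmem45b -0.08. The summed log2 level of the list spanned 12.07 to 12.14 among CON 1W kidneys against 12.22 to 12.44 among RES 1W kidneys. It spanned 12.04 to 12.21 for CON 4W against 12.24 to 12.73 for RES 4W. On this sum the restricted kidneys were above the controls at both ages, although not every marker was. By its construction the sum was raised mostly by Aqp2, which had the largest rise of the 7 at both ages. A sum without Aqp2 was not examined. The part of this change in the member values was not tested.

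Wnk1 was read by 3 measurable probes, and its control groups differed more with age than by restriction. The leading probe read 8.96, 8.85, 8.83 and 8.57 in CON 1W and 8.53, 7.98 and 8.54 in CON 4W. The CON 4W kidneys lay below all CON 1W kidneys, 1 of 3 member probes that did not overlap in this comparison and were lower, where 8.94% of all tested probes were. The 3 probes gave log2 fold changes with age of -0.45, -0.60 and -0.24 (adjusted p of 0.20, 0.17 and 0.65), and none was called. Leaving out CON 4W replicate 2, which read 7.98, gave the lead probe -0.27 (adjusted p = 0.56). Under restriction the leading probe read 8.75, 8.85, 9.32 and 8.52 in RES 1W and 8.53, 8.67, 8.38 and 8.37 in RES 4W, which overlapped with the controls of the same age.

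Atp1b1, the beta subunit of the sodium pump, averaged 14.00 ± 0.08 in CON 1W, 14.17 ± 0.13 in RES 1W, 14.08 ± 0.13 in CON 4W and 14.09 ± 0.11 in RES 4W (SD, n as above). It was the only member probe with a positive log2 fold change in the age comparison. Its 95% confidence interval was -0.04 to 0.37 in RES 1W and -0.22 to 0.23 in RES 4W. The pump is made in every nephron segment, so a whole-kidney level is not one of the distal nephron.

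**Figure D3:**
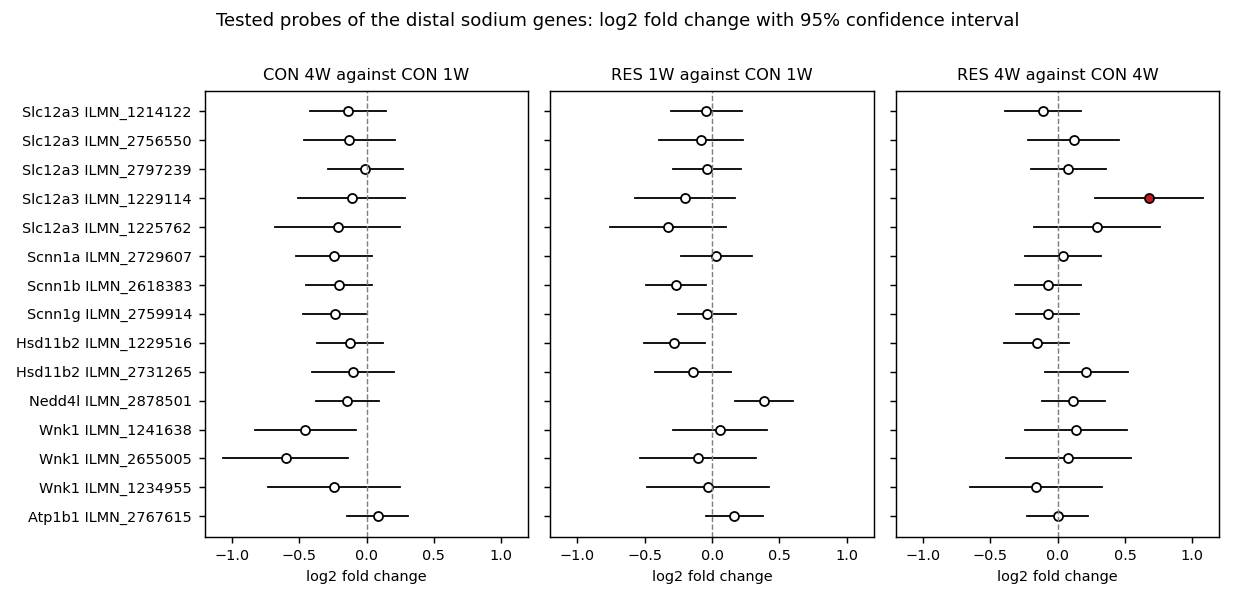
Log2 fold change (x axis, points) with 95% confidence interval (lines) of the 15 tested probes (y axis, gene and probe number) in 3 comparisons, from limma; a filled red point has an adjusted p under 0.05. The only filled point is Slc12a3 ILMN_1229114 in RES 4W at 0.68, the point of Nedd4l in RES 1W lies at 0.39, and 14 of 15 points of the age comparison lie below 0.

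The members varied among the CON 1W kidneys in a shared way, which was noticed after the values were seen. Replicates 1 and 2 were both above replicates 3 and 4 in 13 of 15 member probes (86.7%). Over all tested probes that order held for 24.6%, and the opposite order for 23.2%. Replicates 1 and 2 were each other's nearest arrays over all tested probes, as were replicates 3 and 4. The order was not particular to the members. Sgk1, Tsc22d3 and Per1, given below, also held it, Hsd11b1 held the opposite order, and Edn1 and Ndrg2 held neither. Probes of one gene share a target and all probes share these 4 mice, so the 13 probes are not independent. The spread of CON 1W enters both the restriction comparison at 4 weeks of age and the age comparison.

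The genes most alike to the members in level over the 15 arrays were searched among 5529 genes with a mean log2 level over 7. Slc12a3 was most like Tcf25 (r = 0.94), Aif1l (r = 0.91) and Bcl2l2 (r = 0.87). Nedd4l was most like Slc23a3 (r = 0.92), Hexim1 (r = 0.92) and Bag4 (r = 0.92). With deviations from the group means, these values for Nedd4l were 0.75, 0.79 and 0.69, and that of Slc12a3 with Tcf25 was 0.97. Among the ENaC subunits, Scnn1g was most like Ogfr (r = 0.91), Scnn1a most like Tprgl (r = 0.85) and Scnn1b most like Leprot (r = 0.82), which was also among the 3 most like Hsd11b2 (r = 0.77). Wnk1 was most like Mpv17l (r = 0.87), Hsd11b2 most like Swt1 (r = 0.81) and Atp1b1 most like Man2a2 (r = 0.83). The members themselves were left out of this search. Between members, the highest correlation was that of Scnn1b with Hsd11b2 (0.769), followed by that of Scnn1a with Scnn1g (0.709). With deviations from the group means these pairs gave 0.56 and 0.51, and the highest was Wnk1 with Atp1b1 (0.74). All of these share the same 15 arrays and are a description.

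Of 12 listed transcripts known to be induced by corticosteroids, all tested by the probe with the highest mean level, 5 rose in RES 1W and 7 did not pass the test, where 1.79% of 10838 genes rose. The median log2 fold change was 0.37 over the list and -0.001 over all genes. The list was chosen with earlier results of these data known, so its count and median are a description. The 5 genes were Sgk1, Per1, Edn1, Ndrg2 and Tsc22d3. In each of them all 4 RES 1W kidneys lay above all CON 1W kidneys, where 10.1% of all tested probes did not overlap in either direction. Among the 7 others, Zbtb16 gave 0.38 and Fkbp5 0.30, whereas Ankrd33b gave -0.16 and Sgk3 -0.09, with adjusted p of 0.48, 0.55, 0.74 and 0.93. The list also includes targets of glucocorticoids, so a rise in it does not name aldosterone as the hormone. No corticosteroid level was among these data, and whether any corticosteroid caused the rise was not tested.

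Sgk1, the kinase that holds back Nedd4l, read 12.09, 11.79, 11.00 and 11.51 in CON 1W and 12.87, 13.33, 12.79 and 13.44 in RES 1W. No restricted kidney reached down to the controls. The rise was 1.51 on the log2 scale (SE 0.26), 2.85-fold, with an adjusted p of 0.0035, and it was called without any one of the 15 arrays. In the older mice Sgk1 read 11.43, 11.97 and 12.13 in CON 4W and 11.58, 12.74, 12.30 and 12.41 in RES 4W. Replicate 1 of RES 4W lay among the controls, and the log2 fold change of 0.41 was not called (adjusted p = 0.37). Without that array all RES 4W kidneys lay above all CON 4W kidneys, and the value was 0.64 (adjusted p = 0.080), also not called.

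Per1, a clock gene that aldosterone is known to induce in collecting duct cells, rose by 1.04 (SE 0.21, adjusted p = 0.012), from between 6.37 and 6.96 in CON 1W to between 7.59 and 8.06 in RES 1W. Its second probe rose by 1.02 (adjusted p = 0.013). Per1 was called in RES 1W without any one of the 15 arrays. In RES 4W the leading probe gave 0.28 (adjusted p = 0.48), or 0.50 (adjusted p = 0.064) without RES 4W replicate 1. The time of day of kidney collection was not analysed here.

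Edn1, which encodes endothelin, a peptide that restrains sodium uptake in the collecting duct, rose by 0.56 (SE 0.12, adjusted p = 0.016). Ndrg2, an early transcript of the aldosterone response, rose by 0.55 (SE 0.12, adjusted p = 0.018), and its second probe gave 0.29 (adjusted p = 0.74). Tsc22d3, which encodes the leucine zipper protein GILZ, rose by 0.80 (SE 0.19, adjusted p = 0.032), and its other probes gave 0.03 and 0.70 (adjusted p of 0.97 and 0.46). Unlike those of Sgk1 and Per1, these 3 calls each depended on single arrays. Edn1 was lost without RES 1W replicate 4 (adjusted p = 0.066). Ndrg2 was lost without CON 1W replicate 2, RES 1W replicate 3 or RES 1W replicate 4, at most at 0.074. Tsc22d3 was lost without CON 1W replicates 3 or 4 or RES 1W replicates 2, 3 or 4, at most at 0.12. The count of 5 thereby fell to 3 without RES 1W replicate 3 and to 2 without RES 1W replicate 4.

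**Figure D4:**
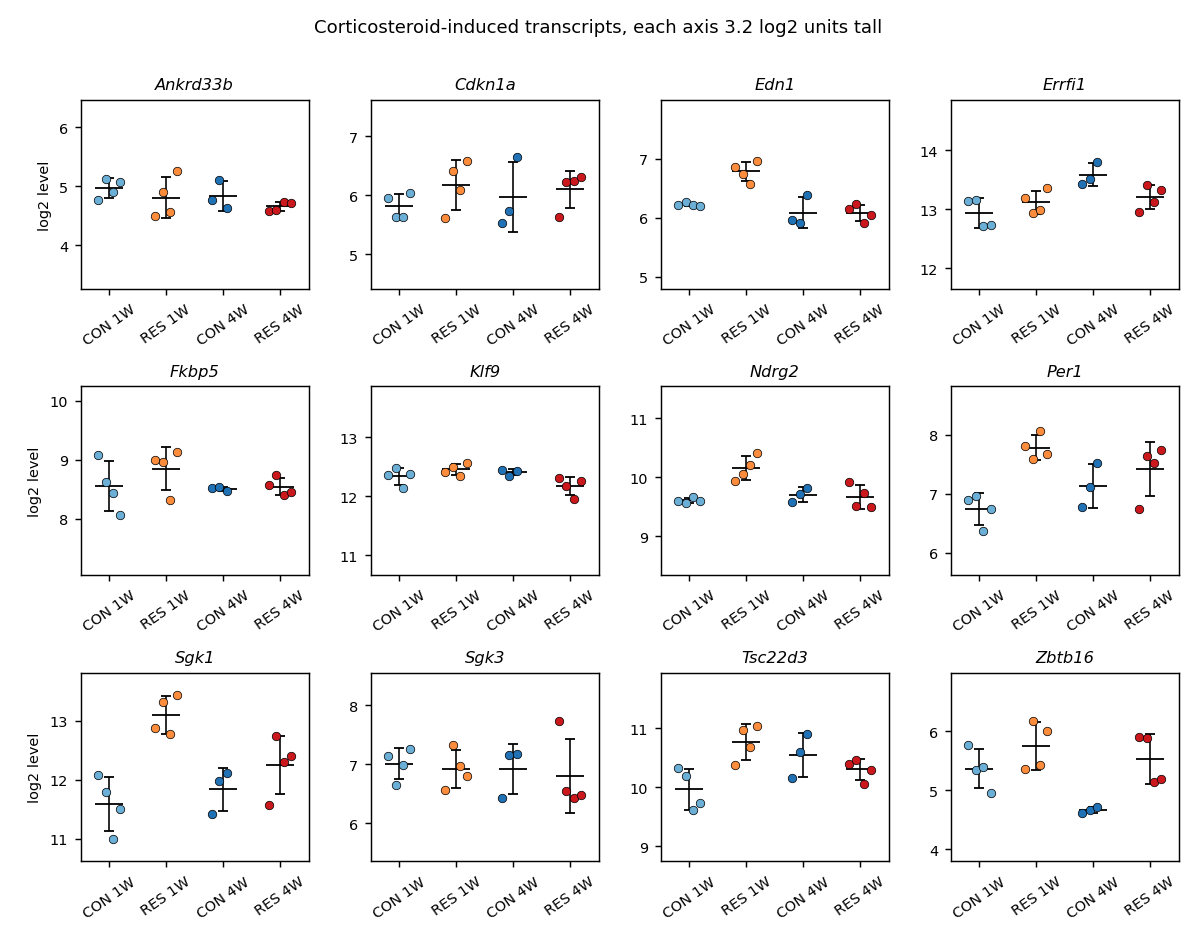
Log2 level (y axis) of the 12 listed corticosteroid-induced transcripts in each of the 15 kidneys (points) by group (x axis); horizontal bars are means and error bars are SD. In Sgk1 the RES 1W points lie between 12.79 and 13.44, above all CON 1W points, and in Zbtb16 the CON 4W points lie between 4.61 and 4.72, not well above background.

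Of the same list, 1 of 12 genes rose in RES 4W, where 2.68% of genes rose. It was Zbtb16, a transcription factor induced by glucocorticoids. It read 4.61, 4.67 and 4.72 in CON 4W, detected in none of these arrays, and 5.91, 5.89, 5.15 and 5.19 in RES 4W. With CON 4W set at the lowest level detected on each array, the mean of RES 4W was 1.57-fold higher. That value does not allow for the spread between mice. With the levels as read, limma gave a log2 fold change of 0.87 (95% confidence interval 0.37 to 1.37, adjusted p = 0.041). The call was lost without CON 1W replicates 2 or 3, any CON 4W array, or RES 4W replicates 2, 3 or 4, with adjusted p up to 0.12. The list's median was -0.02, as was that of all genes. With age, 1 of 12 rose, where 1.37% of genes rose: Errfi1, a feedback inhibitor of the epidermal growth factor receptor, by 0.65 (adjusted p = 0.033). It was lost without CON 1W replicates 3 or 4 or CON 4W replicates 2 or 3, with adjusted p up to 0.16.

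The restriction effect on these genes was not called as different between the ages in any of the 12, where 0.572% of genes were. The difference was -1.10 for Sgk1 (adjusted p = 0.14), -1.06 for Tsc22d3 (0.079), -0.76 for Per1 (0.20), -0.56 for Edn1 (0.11) and -0.58 for Ndrg2 (0.10). Without RES 4W replicate 1, the array that stood apart, Tsc22d3 (adjusted p = 0.021), Edn1 (0.039) and Ndrg2 (0.011) were called, where 15% of all tested probes were, and Sgk1 was not. The values of Tsc22d3 and Ndrg2 come from their leading probes, and the other probes had the opposite sign: 0.62 and 0.38 for Tsc22d3 (adjusted p of 0.22 and 0.77) and 0.14 for Ndrg2 (0.89). Those 2 probes of Tsc22d3 gave 0.64 and 1.08 in RES 4W (adjusted p of 0.057 and 0.12), where the leading probe gave -0.25. No age difference can be read for these genes from 1 probe each.

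The promoter windows of Sgk1 and the members were searched for a textbook motif, the palindrome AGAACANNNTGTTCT that glucocorticoid and mineralocorticoid receptors both bind. It was found in 3 of 32851 windows (0.00913%), and 1 of them is among the 6 windows of Sgk1 starts. Windows were matched for 6 members, Slc12a3, Scnn1b, Scnn1g, Nr3c2, Wnk1 and Atp1b1. Scnn1a, Hsd11b2 and Nedd4l were not matched. None of these 6 held the palindrome, nor its left arm AGAACA on either strand, which 19% of all windows held. All 6 held GGGCGG, 1 to 5 times. The other 4 corticosteroid-induced genes that rose in RES 1W did not hold the palindrome in their windows. A motif this rare is missing from nearly all windows, so its absence from those of the members does not set them apart from Sgk1. A match is a description of the letters and not a site of binding. The Sgk1 window was chosen because it holds the motif (RefSeq, GRCm38.p6, chr10:21993640-21993939, plus strand, 46.3% GC). Capitals mark the palindrome, which begins at position -189 from the start, a further TGTTCT upstream of it and the reverse complement of GGGCGG.
Sgk1: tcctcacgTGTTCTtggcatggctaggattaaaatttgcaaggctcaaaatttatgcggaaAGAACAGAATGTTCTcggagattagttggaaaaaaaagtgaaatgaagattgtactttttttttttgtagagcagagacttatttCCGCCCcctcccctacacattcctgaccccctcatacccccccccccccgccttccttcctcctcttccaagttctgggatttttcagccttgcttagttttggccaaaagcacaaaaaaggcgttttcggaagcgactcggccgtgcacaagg

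Among 10 tested genes of NCC control, 1 rose in RES 1W and none in RES 4W, where 1.79% and 2.68% of genes rose. The 1 gene was Ppp1r1a, a phosphatase inhibitor of the distal convoluted tubule known to raise NCC phosphorylation. It spanned 12.17 to 12.26 among CON 1W kidneys against 12.60 to 12.72 among RES 1W kidneys, a rise of 0.45 (SE 0.08, adjusted p = 0.0044) that was called without any one of the 15 arrays. In RES 4W its log2 fold change was 0.29 (adjusted p = 0.056), called without RES 4W replicate 1 (0.020). Wnk4, the kinase that governs NCC, gave 0.13 in RES 1W and 0.07 in RES 4W (adjusted p of 0.75 and 0.79). Klhl3, which marks WNK kinases for degradation, gave -0.35 in RES 4W (adjusted p = 0.098), and without RES 4W replicate 1 it was called (0.0099). Without that array the share of all tested probes called in RES 4W also rose, as given above.

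None of the 12 genes listed as ENaC proteases and regulators was called in any comparison, with list medians between -0.20 and 0.12. Prss8, the protease that activates ENaC, gave -0.03 in RES 1W and -0.25 in RES 4W (adjusted p of 0.95 and 0.22). It was called as lower in RES 4W without replicate 1 of that group (0.014), a fit in which more of all tested probes were called. None of the 5 tested genes of the sodium pump list was called either. Of 5 tested genes of corticosteroid receptors and metabolism, Hsd11b1 fell in RES 1W. It encodes the enzyme that regenerates active corticosteroid, the reverse of the reaction of Hsd11b2. It spanned 12.13 to 12.57 among CON 1W kidneys against 11.60 to 11.98 among RES 1W kidneys. The fall of 0.55 on the log2 scale (SE 0.12) had an adjusted p of 0.023 and was lost as a call without CON 1W replicates 3 or 4 or RES 1W replicates 3 or 4, at most at 0.093. The glucocorticoid receptor gene Nr3c1 was detected in no array.

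On the list of distal potassium, magnesium and calcium transport, 12 genes were tested, and the segment that expresses each was not examined. Among the 12, 1 was called in RES 1W, 3 in RES 4W and 2 with age, where 3.4%, 5.83% and 3.42% of all genes were. They were Slc8a1, Trpm6 and Kcne1. Slc8a1, the sodium-calcium exchanger of the distal convolution, fell in RES 1W by 0.81 (SE 0.14, adjusted p = 0.0032), from between 9.49 and 9.79 to between 8.53 and 9.17, a call that held without any one of the 15 arrays. It also fell in RES 4W by 0.52 (adjusted p = 0.045), from between 8.92 and 9.23 to between 8.49 and 8.74, and this call held in 3 of 15 such fits, with an adjusted p up to 0.13 in the others. All restricted kidneys lay below their controls at both ages.

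Trpm6, a channel for magnesium uptake, spanned 6.88 to 7.04 among CON 1W, 6.18 to 6.71 among CON 4W and 6.81 to 7.08 among RES 4W kidneys. It fell with age by 0.47 (adjusted p = 0.047) and rose in RES 4W by 0.49 (adjusted p = 0.030). Kcne1, a potassium channel subunit, spanned 7.28 to 7.58, 6.65 to 6.86 and 7.07 to 7.36 in the same groups. It fell with age by 0.64 (adjusted p = 0.0098) and rose in RES 4W by 0.46 (adjusted p = 0.041). Both RES 4W comparisons and both age comparisons share the CON 4W arrays, which were the lowest for both genes. Leaving out 1 array at a time, the calls held in 2 and 10 of 15 fits for Trpm6 and in 14 and 8 of 15 for Kcne1, with age and in RES 4W. In the other fits the adjusted p ran up to 0.22 and 0.11 for Trpm6 and up to 0.06 and 0.13 for Kcne1. Kcnj1, the potassium secretory channel, gave 0.37 in RES 1W (adjusted p = 0.091) and 0.24 in RES 4W (adjusted p = 0.21), and was not called.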

How the data were processed

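Kidney RNA of 15 mice was measured, and each array's group was taken from its label. The deposited intensity values had been background-subtracted and quantile-normalized by the authors in GenomeStudio 1.0.2, and each comes with a deposited detection p-value against the negative control beads of its array. The deposited series table holds log2 values made from those intensities, missing below 5.

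Log2 levels were recomputed from the intensities and detection p-values in R 4.3.3 by limma 3.58.1 and its function neqc (normexp correction, offset 16, quantile normalization), a further correction of values that were already corrected. Tested were the 19027 of 45281 probes whose detection p lay under 0.05 in 3 or more arrays. A group-means model over the 4 groups was fitted (lmFit, eBayes), with Benjamini-Hochberg adjustment over the tested probes of each comparison. Groups set side by side for 1 probe were also compared by a two-sided exact permutation test. P-values measure the spread between mice. Arrays have no read depth, and their number sets the precision.

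The annotation gave 1 symbol for 16351 tested probes, several for 7 and none for 2669, and 16332 were updated by gene ID. Pathway genes were represented by their tested probe of highest mean level. The genes named were all member probes, up to 4 called genes of a list and comparison by the smallest adjusted p, and a fixed set (Sgk1, Wnk4, Klhl3, Prss8, Nr3c1, Tsc22d3, Kcnj1). The members and lists were chosen with earlier results of these data known. Promoter windows came from RefSeq, and motifs were searched on both strands. Alternatives were other offsets, normalizations, filters, values, priors, weights and tests, a block for the replicate number, and the omission of 1 array at a time. The fit was tested on simulated data.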

Additional observations from a re-analysis of the deposited data

Results flagged for a closer look

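In 4 of 111 groups of 4 arrays examined, 1 kidney lay far from the other 3, judged by its gap to the nearest value as a share of the group's range. Chance alone marks about 1 in 20 groups. The Nr3c2 probe ILMN_2751258 read 5.51 in RES 4W replicate 1 against 4.37 to 4.38 in the other RES 4W kidneys, where it was not detected. The same probe read 4.80 in RES 1W replicate 3 against 4.51 in the rest of that group, also not detected. RES 4W replicate 1, the array nearest to CON 4W, held both of the remaining values. In it Sgk3, a kinase related to Sgk1, read 7.73 against 6.43 to 6.55 in its group, and Cdkn1a, a cell cycle inhibitor, read 5.63 against 6.22 to 6.30.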

How the results depend on the processing

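With fewer than 5 mice per group, small changes of the member probes could not be detected, and dim probes such as both of Nr3c2 gave no level. The count of member probes called in RES 1W against CON 1W was 0 as fitted. It was 1, Nedd4l, with an offset of 50, the authors' processed values, no filter on dim probes, a stricter filter, the methods' ANOVA, array weights, a trended and robust prior, or the replicate number as a block, and 0 to 1 on leaving out 1 array. In RES 4W against CON 4W the count was 1, Slc12a3 ILMN_1229114. It was 0 with the log2 of the deposited intensities plus 16, the authors' processed values, no filter, the methods' ANOVA, the methods' t-test, only the groups compared, or the replicate block, and 0 to 1 on leaving out 1 array. For the difference between the ages, the count of 0 became 2, both of Slc12a3, with array weights and was 0 to 1 on leaving out 1 array. In the age comparison it stayed at 0 under every alternative run. The 5 corticosteroid-induced genes higher in RES 1W became 0 with the methods' t-test after Benjamini-Hochberg adjustment, and 2 to 5 on leaving out 1 array. Why each count moved was not tested, except that the t-test and the fit on only the groups compared estimate the spread from fewer arrays. Replicate numbers did not pair the mice: the deviations of same-numbered arrays correlated between -0.10 and 0.19. With the block, 458 probes were called in RES 1W against 534 without it, and 819 in RES 4W against 1235. Of 900 values of member probes with 1 array left out, 886 kept a call or stayed uncalled, 11 lost a call, 3 gained one and 0 reversed. Only 1 member value was called as fitted, so nearly all of the 886 were uncalled values, and 45 of them changed sign. The 11 losses were all of the call of ILMN_1229114 in RES 4W, which held in 4 of 15 fits. Of 686 values under the other alternatives, 669 kept a call or stayed uncalled, 4 of them with a changed sign, 7 lost a call and 10 gained one.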
